A study of Mus musculus with 12 samples.

Results

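In the distal forelimb bud of wild-type mouse embryos, 915 sites bound by both HOXA13 and HOXD13 carried a peak of H3K27ac and a peak of H3K27me3 at the same time. They were found by merging overlapping HOXA13 and HOXD13 peaks on the autosomes into 33296 sites and keeping the 19353 that met a peak of each factor. A shared site became a member where it overlapped a wild-type peak of each mark by at least 1 bp. Another 7548 shared sites carried H3K27ac alone, 1331 carried H3K27me3 alone and 9559 carried neither mark. The presence of these 4 wild-type peaks chose the members and is a description, not a finding. What happened to each mark in embryos without HOXA13 and HOXD13, and whether H3K27me3 had been called a day earlier, was not used by the rule.

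The homeodomain proteins HOXA13 and HOXD13 act in the late, distal limb bud, where they are required together to form the digits. H3K27ac, acetylation of lysine 27 of histone H3, marks active promoters and enhancers, whereas H3K27me3, trimethylation of the same residue, is laid down by Polycomb repressive complex 2 over silent developmental genes. A single lysine cannot carry both groups, so a place with peaks of both marks in a tissue holds them on different histone tails, alleles or cells. These arrangements cannot be told apart in chromatin from a whole limb bud.

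The series holds 12 samples profiled by chromatin immunoprecipitation and sequencing (ChIP-seq), of which 7 have a peak list used here, and each group is 1 library. The E11.5 groups were distal forelimb buds of mixed C57BL/6 and CD1 background: wild type for HOXA13, HOXD13, H3K27ac and H3K27me3, and Hoxa13-/-;Hoxd13-/- (the double mutant below) for H3K27ac and H3K27me3. In the mutant, the coding region of Hoxa13 holds a neomycin cassette, and a lacZ reporter sits in the first exon of Hoxd13. The E10.5 group was wild-type CD1 forelimb bud profiled for H3K27me3 with an antibody of another supplier, so that stage, strain, part of the limb and antibody cannot be told apart between E10.5 and E11.5. Antibodies to both factors were made in-house, and chromatin for HOXA13 had a second cross-linker. The labels give neither the sex nor the number of embryos behind a library.

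All positions are on the mouse build mm9. On autosomes the lists held 31220 wild-type and 37433 double-mutant H3K27ac peaks, and 19624 wild-type, 18973 double-mutant and 15077 E10.5 H3K27me3 peaks. A mark is "called" at a site where a peak of that list overlaps the site. Over all chromosomes the H3K27me3 lists held 28875 wild-type, 19358 double-mutant and 17556 E10.5 peaks, so most of the wild-type excess lay off the autosomes. On X, 52 shared sites carried both marks in wild type. In the double mutant H3K27me3 was called at 15 of these and H3K27ac at 44. Whether the libraries differ in the sex of the embryos was not tested. The peak score is the authors' own value, read as the -10 log10 p-value of MACS, and it is used here to rank peaks within a list. Read depth is unknown, no value has a replicate check, and no p-value is given. Percentages carry Wilson 95% intervals and differences Newcombe 95% intervals, which cover only the counting of sites. A mark that is not called may lie below the threshold of that list.

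In wild type the members were mostly places where a narrow acetylated interval met a wider trimethylated one. The median member was 1577 bp wide, its H3K27ac peak 2121 bp and its H3K27me3 peak 4725 bp. The H3K27ac peak lay wholly inside the H3K27me3 peak at 334 members (36.5%, 33.4 to 39.7%), and the reverse held at 87 (9.51%, 7.77 to 11.6%). At 440 members (48.1%) the peaks overlapped in part, and at 54 (5.90%) both touched the site without touching each other. Peaks of both marks shared a median of 23.4% of their joint span, and at only 11 members did they coincide over at least 90% of it. The site itself lay wholly under both marks at 178 members (19.5%).

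A few members barely met the rule. Under 100 bp of H3K27me3 lay on 35 members, while 41 sites with H3K27ac alone had an H3K27me3 peak less than 100 bp away. H3K27ac covered under 100 bp of 9 members, and 7 sites with H3K27me3 alone had an H3K27ac peak within that distance. In the double mutant, 13 of the 35 members just inside and 8 of the 41 sites just outside met an H3K27me3 peak.

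The members were spread over the genome. They made up between 3.09% of the shared sites on chromosome 10 and 6.49% on chromosome 11. They met 897 H3K27me3 peaks, of which 815 held 1 member, 82 held 2 or more and 6 held at least 5. Members under 1 peak are not independent of each other. Across the 915 members the HOXA13 and HOXD13 scores had a Spearman rho of 0.847. The HOXA13 score had a rho of -0.159 with the H3K27ac score and -0.0126 with the H3K27me3 score. These correlations run across sites of the same libraries and are given as a description.

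Most members still carried both marks in the double mutant. Both were called at 562 of 915 members (61.4%, 58.2 to 64.5%), while both were called there at 3.64% of all shared sites. H3K27ac alone was left at 214 (23.4%, 20.8 to 26.2%), H3K27me3 alone at 115 (12.6%, 10.6 to 14.9%) and neither at 24 (2.62%, 1.77 to 3.87%). H3K27ac was thus called at 776 members (84.8%) and H3K27me3 at 677 (74.0%). Over all shared sites, whether or not marked in wild type, these shares were 37.6% and 9.00%. H3K27me3 was not called at 238 members (26.0%) and H3K27ac at 139 (15.2%), with the 24 members left with neither mark in both counts. Over all autosomal wild-type peaks the order was the same: 84.9% of H3K27ac peaks and 69.6% of H3K27me3 peaks met a double-mutant peak. The mutant list was longer than the wild-type list for H3K27ac and shorter for H3K27me3. With lists of equal length, H3K27ac was called in the mutant at 80.6% of the members then counted and H3K27me3 at 75.7%, a smaller gap.

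**Figure D1:**
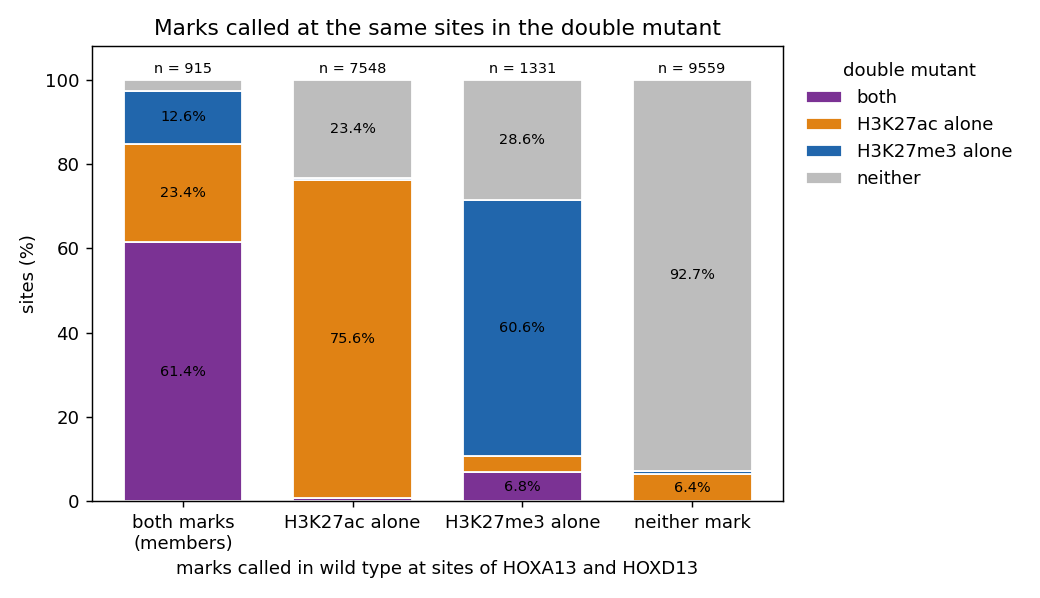
Bars show, for shared sites grouped by the marks called in wild type (x axis), the percentage of sites in each mark state of the double mutant (y axis, stacked to 100%; n above each bar is the number of sites). The members, on the left, were chosen for both marks in wild type, and 61.4% of them had both in the mutant. Sites with H3K27ac alone or neither mark seldom met H3K27me3 there.

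Uncalled H3K27ac and uncalled H3K27me3 looked different along the genome. At the 139 members without double-mutant H3K27ac, the nearest H3K27ac peak of the mutant was a median of 21815 bp away, and at only 10 did the wild-type peak still meet one elsewhere along its length. At the 238 members without H3K27me3 that distance was 5206 bp, with 79 members (33.2%) under 1000 bp, and at 87 (36.6%) the wild-type H3K27me3 peak still met a mutant peak elsewhere. At those 87 members the mark was still called within the wild-type interval but no longer on the site. Wild-type peaks of the uncalled mark also differed in width, with medians of 1155 bp for H3K27ac and 2496 bp for H3K27me3. The part of width was not tested, and these distances are given for members only.

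Peaks called in both genotypes changed width in opposite directions. At the 776 members with H3K27ac in both, the mutant peak had a median of 1.06 times the wild-type width, and 38.7% were narrower than in wild type. At the 677 with H3K27me3 in both, the ratio was 0.862 and 81.2% were narrower. Over all autosomal peaks met in both genotypes the ratio was 1.09 for H3K27ac, with 30.3% narrower in the mutant, and 0.838 for H3K27me3, with 79.1% narrower.

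**Figure D2:**
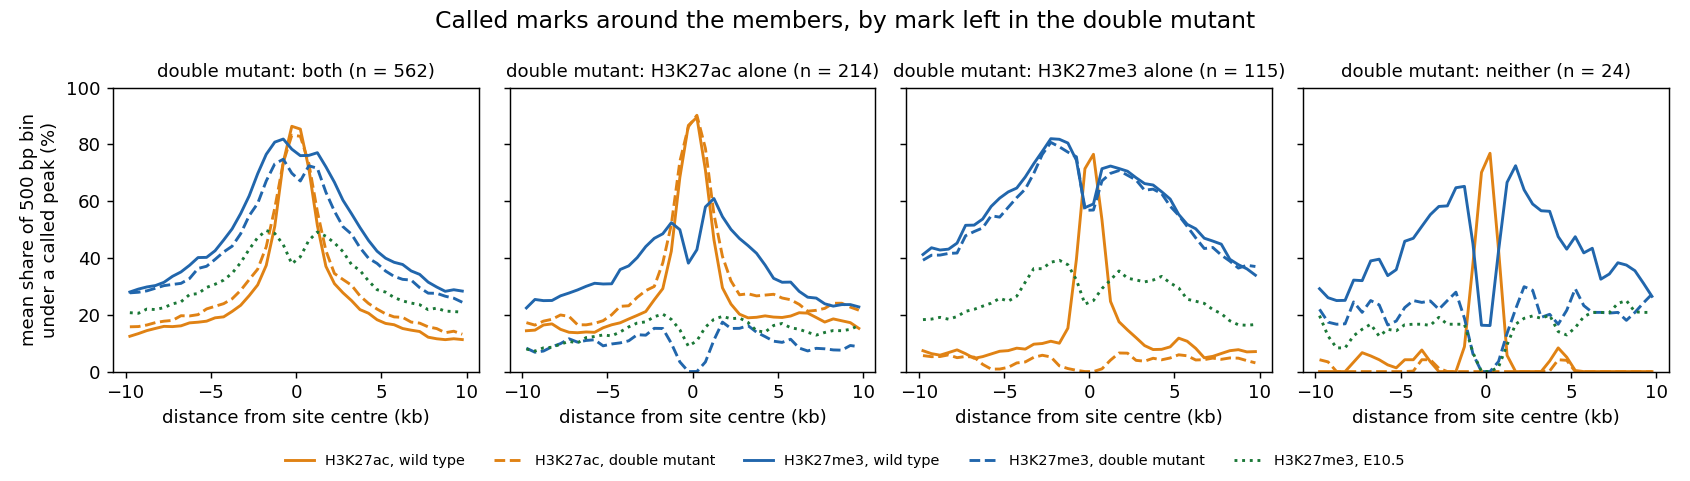
Mean percentage of each 500 bp bin under a called peak (y axis) by distance from the centre of the member in kb (x axis), in 4 panels by the marks left in the double mutant; solid and dashed lines are wild type and double mutant at E11.5, dotted lines E10.5. Members left with H3K27me3 alone sat in wide H3K27me3 that was nearly as extensive in the mutant, with little H3K27ac to either side. Wild-type H3K27me3 was lower at the centre than about 5 kb away where H3K27me3 alone or neither mark was left. In the other panels it was higher at the centre.

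The surroundings differed between the 4 states. At members left with H3K27me3 alone, 62.0% of sequence about 5 kb from the centre lay under wild-type H3K27me3 and 58.0% under mutant H3K27me3, against 8.03% under wild-type H3K27ac. At members left with H3K27ac alone the corresponding H3K27me3 coverage was 31.9% in wild type and 10.2% in the mutant. At members with both marks in the mutant it was 42.5% and 38.8%. The 24 members left with neither mark had H3K27me3 over 16.3% of their centre in wild type and over 44.5% about 5 kb away.

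How the marks were laid out in wild type went with what was left. Where the H3K27ac peak lay inside the H3K27me3 peak, H3K27me3 was called in the mutant at 311 of 334 members (93.1%, 89.9 to 95.4%). The share was 57.5% (47.0 to 67.3%) where H3K27me3 lay inside H3K27ac and 50.0% where the peaks did not touch. H3K27ac was called in the mutant at 85 of the 87 members with H3K27me3 inside it (97.7%) and at 55.6% of those with separate peaks. Separate peaks made up 9 of the 24 members left with neither mark. An H3K27ac peak can lie inside an H3K27me3 peak only where the latter is the wider. Mutant H3K27me3 was called at 43.2% of members in the narrowest of 5 bands of wild-type H3K27me3 width and at 88.0% in the widest. Layouts were not compared within such bands, so the part of peak width was not tested.

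Wild-type peak size moved with these outcomes. Members with mutant H3K27ac had a median wild-type H3K27ac score of 952, against 111 for those without. For H3K27me3 the median wild-type score was 3100 where the mark was called in the mutant and 385 where it was not, and the median widths were 5676 and 2496 bp. A score of 3100 is shared by many peaks and is the most common value in the list. A tall or wide peak is more readily called again in any library, and score and width bands are given below for that reason.

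Members were next set against shared sites that carried 1 of the marks, to see whether the second mark went with a different outcome. H3K27ac was called in the double mutant at 84.8% of members (82.3 to 87.0%) and at 76.2% of sites with H3K27ac alone (75.2 to 77.1%), a difference of 8.62 percentage points (5.97 to 11.0). Over all shared sites with wild-type H3K27ac the share was 77.1%. The difference lay at weak peaks. In the lowest of 5 bands of the wild-type H3K27ac score it was called again at 50.0% of members (42.2 to 57.8%) and 37.4% of sites with H3K27ac alone (35.0 to 39.9%), and in the next band at 78.4% and 62.7%. In the band with the highest scores the shares were 98.8% and 99.6%.

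For H3K27me3 the direction depended on how overlap was counted. The mark was called in the mutant at 74.0% of members (71.1 to 76.7%) and at 67.5% of sites with H3K27me3 alone, 6.52 points higher (2.69 to 10.3), with 70.1% over all shared sites with wild-type H3K27me3. The sign reversed when overlaps had to cover at least 50% of either interval (-1.98 points, -6.68 to 2.60) and when a mark had to cover the midpoint of the site (-5.27, -10.2 to -0.484). No direction is given for this comparison.

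Factor scores tended to be higher at members without mutant H3K27ac, although the ranges overlapped almost wholly. HOXA13 scores had a median of 677 at members without mutant H3K27ac and 238 at members with it, a ratio of 2.84 that was 1.89 with scores of at least 100 in every list and 1.91 with at least 50% overlap. HOXD13 scores had medians of 551 and 219, a ratio of 2.51. At sites with H3K27ac alone the HOXA13 medians were 303 and 233, so the same order held with a smaller gap. By state, the HOXA13 median was 231 where both marks were left, 280 with H3K27ac alone, 609 with H3K27me3 alone and 973 with neither. The 24 members left with neither mark ranged from 85.9 to 3076.

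**Figure D3:**
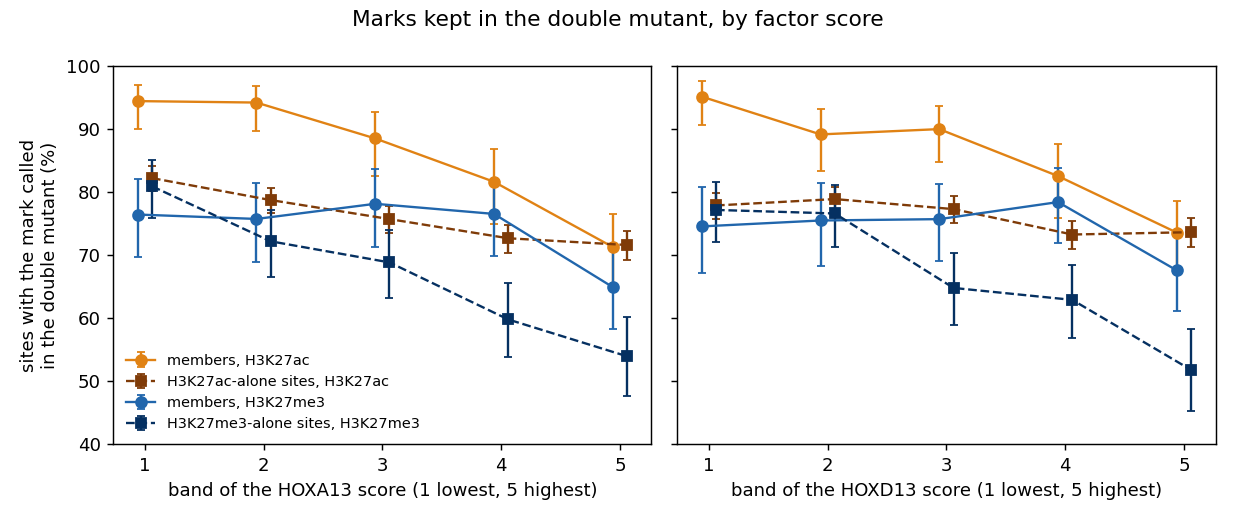
Percentage of sites with the mark called in the double mutant (y axis, starting at 40%) in 5 bands of the HOXA13 score (left) and HOXD13 score (right), with Wilson 95% intervals as bars; circles are members, squares are shared sites with that mark alone, and bands hold equal numbers of members and comparison sites together. H3K27ac at members (orange circles) went from 94.4% in the lowest HOXA13 band to 71.3% in the highest, where sites with H3K27ac alone were at 71.6%.

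Along the HOXA13 score, members lay above sites with H3K27ac alone in the lowest band, and no difference was detectable in the highest. These bands were not matched for the wild-type H3K27ac score. Its median was 648 at members and 454 at sites with H3K27ac alone. In the lowest of 5 HOXA13 bands, H3K27ac was called in the mutant at 94.4% of members (90.0 to 96.9%) and at 82.2% of sites with H3K27ac alone (80.2 to 84.0%), a difference of 12.2 points (7.42 to 15.4). In the highest band it was called at 71.3% (65.3 to 76.5%) and 71.6% (69.2 to 73.8%), a difference of -0.322 points (-6.67 to 5.47). With scores of at least 100 in every list the difference in the highest band was 5.52 points (-2.54 to 12.6). H3K27me3 at members stayed between 75.7% and 78.1% over the 4 lower HOXA13 bands and was called at 64.9% (58.2 to 71.1%) in the highest. At sites with H3K27me3 alone it went from 80.9% in the lowest band to 53.9% in the highest.

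Among members with low H3K27ac scores, those with high HOXA13 scores less often had H3K27ac called in the mutant. In a comparison added after seeing the data, members were put into 5 bands of the wild-type H3K27ac score and split at the median HOXA13 score of 279. In the lowest band H3K27ac was called in the mutant at 72.5% (61.0 to 81.6%) of members at or under that HOXA13 score and at 41.2% (32.6 to 50.4%) of those above it. Their median H3K27ac scores were 93.8 and 80.6, so H3K27ac was also somewhat weaker in the second set. In the next band the shares were 94.0% (86.8 to 97.4%) and 70.7% (61.1 to 78.8%), with median H3K27ac scores of 242 and 252. In the middle band they were 95.8% and 89.7%, with overlapping intervals, and in both higher bands at least 96.6% of each set had mutant H3K27ac.

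**Figure D4:**
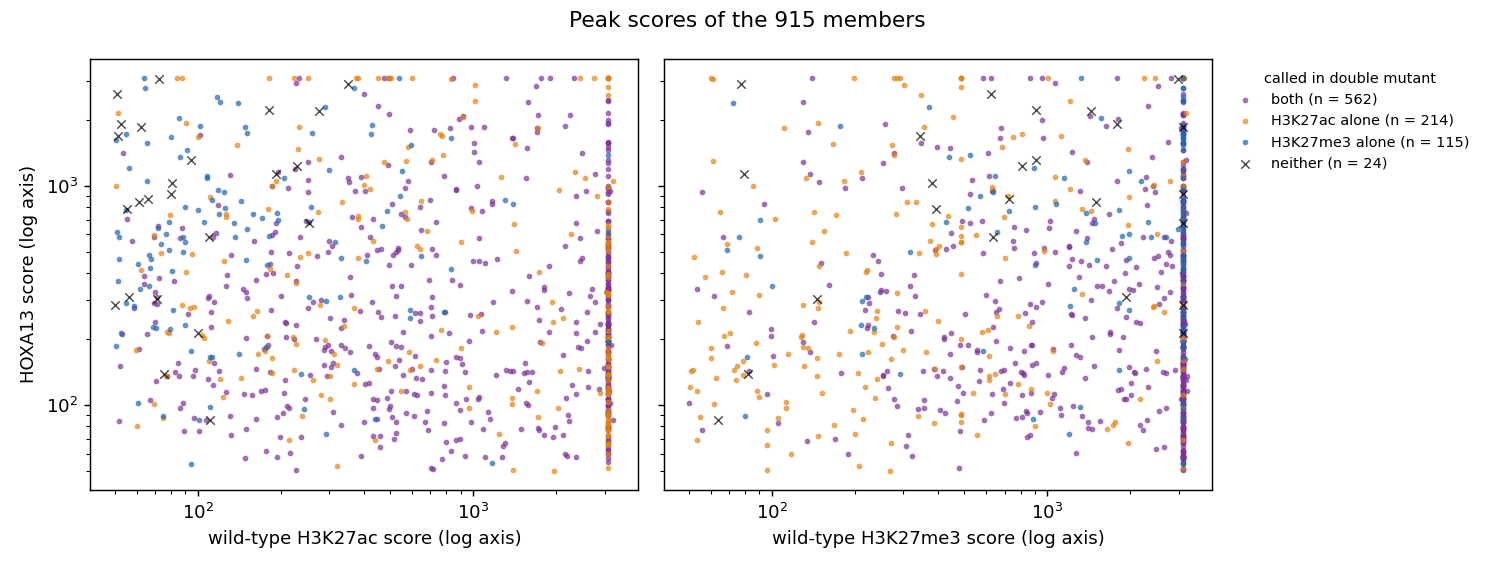
Each point is 1 of the 915 members, with its HOXA13 score (y axis, log scale) against its wild-type H3K27ac score (left) and wild-type H3K27me3 score (right, both log scale); colours give the marks called in the double mutant. Members left with H3K27me3 alone (blue) or neither mark (crosses) lie towards low H3K27ac and high HOXA13 scores, and the vertical lines of points at 3100 are the scores that many peaks share.

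Members were also compared with places that had both marks and less binding, where both marks were left more often. Both were called in the mutant at 72.9% (67.8 to 77.5%) of sites with both marks and HOXA13 alone and at 74.0% (66.3 to 80.4%) of those with HOXD13 alone, against 61.4% (58.2 to 64.5%) of the members. H3K27ac was called in the mutant at 91.1% of 314 sites with both marks and HOXA13 alone, and the members differed from these by -6.27 points (-9.92 to -2.01). It was called at 94.5% of 146 such sites with HOXD13 alone, from which the members differed by -9.71 points (-13.4 to -4.29). The first of these differences was -3.04 points (-8.15 to 2.89) with at least 50% overlap and -4.82 (-10.1 to 1.28) with the mark over the midpoint, where both intervals included 0, and -13.6 points (-17.9 to -7.87) with scores of at least 100. Sites of 1 factor had median factor scores of 74.2 for HOXA13 and 72.8 for HOXD13, far under the members' 279 and 238. Median wild-type H3K27ac scores were 494 with HOXA13 alone and 1479 with HOXD13 alone, against 648 at members. Both sets of sites were also narrower, with medians of 934 and 1065.5 bp against 1577 bp at members. The part of factor score, H3K27ac score and width in these differences was not tested.

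Taken from the side of the H3K27ac peaks, 911 wild-type peaks on H3K27me3 met both factors, 461 met 1 factor and 3063 met none. H3K27ac was called in the mutant at 86.8% of those with both factors (84.5 to 88.9%), 92.4% of those with 1 and 95.1% of those with none (94.3 to 95.8%). Peaks with both factors minus peaks with none gave -8.31 points (-10.8 to -6.11), while their H3K27ac scores were higher, with medians of 705 and 291. Both marks were left at 64.9% of the peaks with both factors and 78.3% of those with none. In the lowest score band the shares with H3K27ac were 52.2% and 83.5%, a difference of -31.3 points (-40.8 to -21.9). In the highest band all 306 and all 440 peaks were called again. H3K27me3 was called in the mutant at 74.8% of peaks with both factors and 82.3% of peaks with none, a difference of -7.58 points (-10.8 to -4.54). In the highest H3K27ac score band that difference was 7.85 points, with the opposite sign (1.47 to 13.9). When the mark had to cover the midpoint, the H3K27ac difference was -16.5 points, and with scores of at least 100 it was -12.5.

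As the rule counts overlap, H3K27me3 was called at E10.5 at about as many members as not. An E10.5 peak was called at 462 of 915 members (50.5%, 47.3 to 53.7%), against 6.50% of all shared sites. The share was 47.0% over shared sites with wild-type H3K27me3 and 49.8% over all autosomal wild-type H3K27me3 peaks, close to that of the members. Of the members then counted, 40.5% had an E10.5 peak with at least 50% overlap and 40.8% with the mark over the midpoint. The share was 42.4% with scores of at least 100 in every list and 54.5% with marks within 1000 bp. Counted as reported, it was 44.6% at sites with H3K27me3 alone and 1.63% at sites with H3K27ac alone. The members lay 5.94 points above sites with H3K27me3 alone (1.74 to 10.1), but the difference was -6.77 points with at least 50% overlap and -6.36 where the mark had to cover the midpoint, so no direction is given. Where a member had an E10.5 peak, that peak had a median of 0.553 times the width of the E11.5 wild-type peak.

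The E10.5 state went with the mark left in the mutant. An E10.5 peak was called at 350 of the 562 members with both marks in the mutant (62.3%, 58.2 to 66.2%) and at 51 of the 115 with H3K27me3 alone (44.3%, 35.6 to 53.5%). It was called at 57 of the 214 with H3K27ac alone (26.6%, 21.2 to 32.9%) and at 4 of the 24 with neither. The order of the first 2 shares depended on how overlap was counted: with at least 50% overlap they were 47.3% and 50.7%, and with the mark over the midpoint 48.1% and 52.8%, while members left with H3K27ac alone stayed lower at 20.5% and 21.0%. Put the other way, mutant H3K27me3 was called at 86.8% of members with E10.5 H3K27me3 (83.4 to 89.6%) and at 60.9% of members without it (56.4 to 65.3%), a difference of 25.9 points (20.3 to 31.2). Under every alternative run the difference lay between 22.8 and 29.1 points. H3K27ac was called in the mutant at 88.1% and 81.5%.

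Members with an E10.5 peak also had wider wild-type H3K27me3 peaks, with medians of 6908.5 and 3272 bp. The order held in each of 5 width bands, from 60.0% against 37.7% in the narrowest to 91.0% against 76.9% in the widest. In bands of the H3K27me3 score the shares were 47.6% and 39.0% in the lowest and 70.1% and 59.8% in the next. Their intervals overlapped widely in both of these bands. In the band above, the shares were 93.0% and 69.1%, and at scores of 3100 or more they were 96.1% and 82.9%.

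E10.5 H3K27me3 was called at 52.1% of the wild-type H3K27ac peaks on H3K27me3 that met both factors and at 73.3% of those that met none, a difference of -21.2 points (-24.7 to -17.6). That difference was -5.23 points (-9.47 to -0.826) with at least 50% overlap and -6.25 where the mark had to cover the midpoint, so its size depends on how overlap is counted. Within score bands it was -41.1 points at the lowest H3K27ac scores and -1.79 points (-9.01 to 5.42) at the highest.

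Joined over time and genotype, the largest path was H3K27me3 at E10.5, both marks in wild type and both in the mutant, with 350 members and a median HOXA13 score of 216. Both marks in each E11.5 genotype without an E10.5 peak made up 212 members. H3K27ac alone was left at 157 members without an E10.5 peak, with a median HOXA13 score of 319. It was also left alone at 57 members with an E10.5 peak, with a median HOXA13 score of 216 and a median H3K27ac score of 1939. At 51 members H3K27me3 was called at E10.5 and was the mark left in the mutant, while H3K27ac, which was not profiled at E10.5, was called in E11.5 wild type. Their median HOXA13 score was 591 and their median H3K27ac score 144. Another 64 members took the same end state without an E10.5 peak, with a median HOXA13 score of 651.

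Individual members show these patterns. The regions below follow a rule that takes, in each state, the members whose weaker wild-type mark ranked highest within its list. At chr3:99052048-99054550 the HOXA13 score was 2470 and the HOXD13 score 1984. An H3K27ac peak of 3425 bp lay there inside an H3K27me3 peak of 36347 bp, and the mutant peaks measured 3827 and 33060 bp. An E10.5 peak of 19538 bp covered the site as well. Peaks of all 5 histone mark lists thus met at this member, and both marks had nearly the same extent in each E11.5 genotype.

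At chr2:33555667-33558012 both factors scored 3100 and the marks coincided. The H3K27ac peak was 9393 bp and the H3K27me3 peak 9506 bp in wild type, and in the mutant they were 9394 and 9289 bp. No E10.5 peak was called, and the nearest was 9819 bp away. A similar pair lay at chr9:36949982-36952442, with wild-type peaks of 4378 and 4384 bp that differed by at most 5 bp at either end. Such coincidence was rare, since only 11 of the 915 members had peaks that shared at least 90% of their joint span.

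At the 5 members named for the state with H3K27ac alone, wild-type H3K27me3 covered from 12.0% to 36.1% of the site. Over all 214 members of that state the median was 38.7%, and 25 lay wholly under both marks. At chr3:30499499-30500869 the H3K27ac peak of 3388 bp and the H3K27me3 peak of 4200 bp shared 287 bp of the site. In the mutant the H3K27ac peak was 3190 bp, and the nearest H3K27me3 peak ended 40 bp away. At chr9:35131705-35133490 that distance was 36 bp and at chr15:84686435-84687820 it was 44 bp. At these 3 members a mutant H3K27me3 peak stopped just short of the site.

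Members named for the state with H3K27me3 alone included places with low and with high factor scores. At chr18:25733773-25734713 HOXA13 scored 54.4 and HOXD13 52.1, near the lower end of both lists, and wild-type H3K27ac covered 2.55% of the site. At chr2:73814673-73816968 HOXA13 scored 1646 and HOXD13 1980. Its H3K27ac peak of 3847 bp (score 829) had no counterpart in the mutant within 5071 bp, while the H3K27me3 peak went from 7118 to 6935 bp. No E10.5 peak lay within 84829 bp. At chr14:57678668-57680053 HOXA13 scored 863 and HOXD13 961, and H3K27me3 was called on the site at E10.5, in wild type and in the mutant. H3K27ac was called on it in wild type alone, the marks shared only 6 bp of it, and the nearest mutant H3K27ac peak was 1424 bp away.

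Among members left with neither mark, chr11:67875184-67877542 had a HOXA13 score of 2199 and a HOXD13 score of 1776. Its H3K27ac peak of 2177 bp scored 277 and its H3K27me3 peak of 4601 bp scored 1439. In the mutant the nearest peaks were 25507 bp away for H3K27ac and 138788 bp away for H3K27me3. At chr5:132056512-132058566, with factor scores of 2215 and 1779, the H3K27me3 peak of 11436 bp and the H3K27ac peak of 1629 bp did not touch, and a mutant H3K27me3 peak lay 567 bp from the site. The remaining members named for this state had lower HOXA13 scores, of 680, 1231 and 583.

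The broad H3K27me3 peaks that held most members behaved in unlike ways. The largest set, 16 members, lay in 1 wild-type H3K27me3 peak of 68627 bp at chr6:52141834-52210460. Of its length, 88.1% lay under wild-type and 89.4% under mutant H3K27ac, and 46.8% under E10.5 H3K27me3. No double-mutant H3K27me3 peak lay in it. Of its members, 15 were left with H3K27ac alone, and 1 that straddled the edge was left with both marks through a neighbouring peak. At 14 of the 16 an E10.5 peak was called. HOXA13 scores of the 16 ran from 84.1 to 3100, with a median of 574.

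This peak stood apart within its list. It scored 486, while the wild-type H3K27me3 peaks on either side of it, 54 and 111 bp away, both scored 3100. The mutant H3K27me3 peaks ended 129 bp before it and resumed 101 bp after it, so the gap in the mutant list has nearly the ends of the wild-type peak. Of 130 autosomal wild-type H3K27me3 peaks of 30 kb or more, it was the 1 without a mutant peak, and 3, itself included, had scores under 3100. Whether the gap reflects the mark or the calling of peaks in this stretch was not tested. The RefSeq gene table (GRCm38) puts Hoxa13 on chromosome 6 and Hoxd13 on chromosome 2. Gene positions on mm9 were not used here, and no member is tied to a gene.

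**Figure D5:**
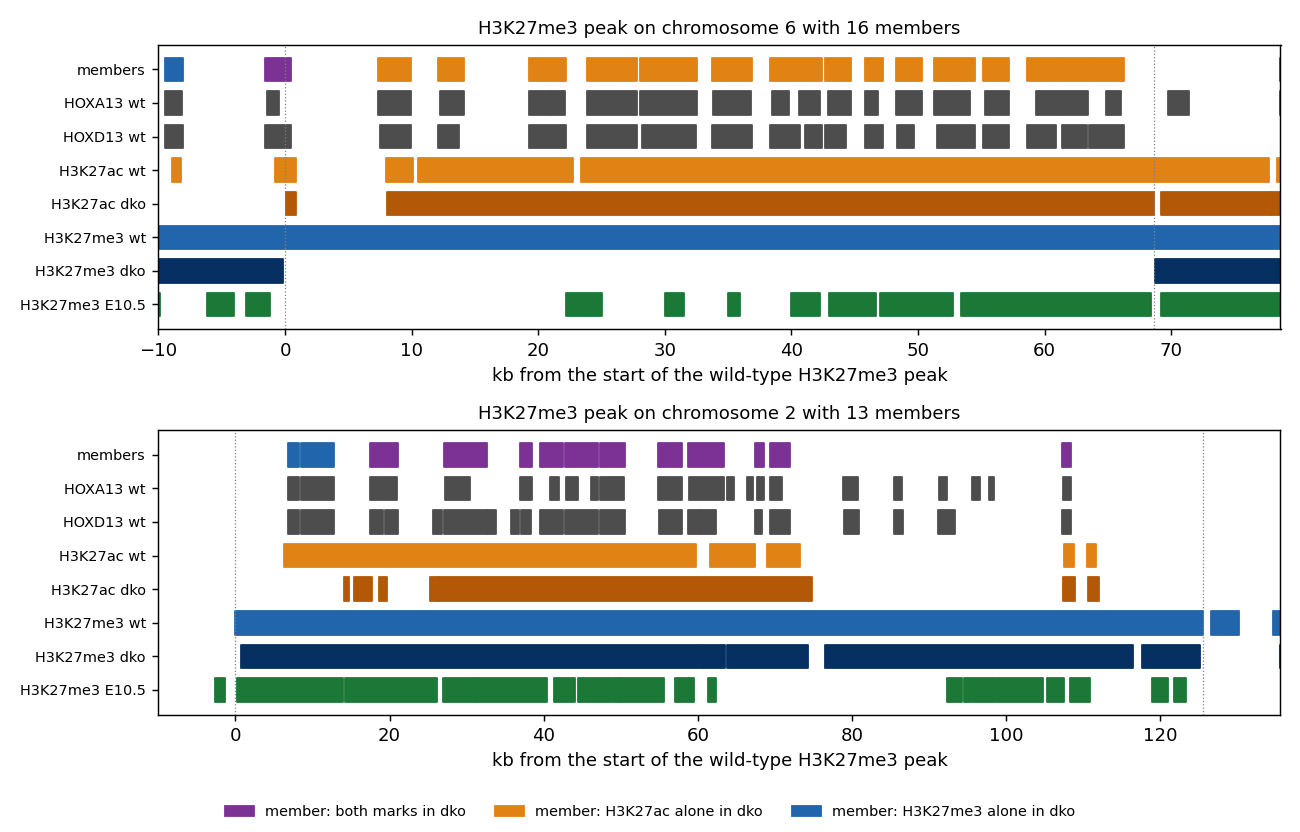
Called peaks of each list (rows) across the 2 wild-type H3K27me3 peaks with most members, in kb from the start of that peak (x axis; dotted lines mark its ends); the top row shows members coloured by the marks left in the double mutant (dko), wt is wild type. On chromosome 6 the mutant H3K27me3 row is empty between the dotted lines and 15 of 16 members have H3K27ac alone, and on chromosome 2 mutant H3K27me3 covers 96.3% and 2 of 13 members have H3K27me3 alone.

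On chromosome 2 the peak at chr2:74479846-74605456, 125611 bp wide, held 13 members. H3K27me3 covered 96.3% of it in the mutant and 61.2% at E10.5. Wild-type H3K27ac lay over 52.6% of its length and mutant H3K27ac over 44.9%. Both marks were left at 11 members. The other 2, chr2:74486603-74488081 and chr2:74488292-74492695, lay side by side near its start and were left with H3K27me3 alone, although the wild-type H3K27ac peak across them scored 3100. Their HOXA13 scores were 194 and 609 and their HOXD13 scores 193 and 1211.

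The other broad peaks kept H3K27me3 almost throughout. At chr8:59786568-59836337 and chr14:122858776-122893771 all 7 members of each had both marks in the mutant and an E10.5 peak. Mutant H3K27me3 covered 99.6% and 97.7% of these peaks. At chr6:52098669-52141779, next to the large peak without mutant H3K27me3, 3 of 6 members were left with both marks and 3 with H3K27me3 alone. Wild-type H3K27ac lay over 21.9% of this peak and mutant H3K27ac over 15.2%, and mutant H3K27me3 covered 99.4%.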

How the data were processed

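ChIP-seq peak lists of 7 immunoprecipitated libraries were analysed, 1 library per group, with groups taken from the sample titles. The deposited lists are in 5 columns (chromosome, start, end, name, score). Per the submitters' processing notes, the authors used Bowtie 0.12.7, MACS 1.4 and mm9. Each deposited list belongs to 1 library and is titled as compared with input, and the input libraries were not analysed here. The deposited score was read as the -10 log10 p-value of the peak caller. The lists hold no read counts, so depth is unknown, and a longer list can reflect deeper sequencing.

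Sites were built, counted and annotated with Python 3.11.15 and NumPy 2.4.6. Autosomes only were used, and positions count from 1. Overlap code was checked by brute force on simulated peaks. The members, comparison sets and named regions were chosen with earlier results of these data known. Named regions are up to 5 members per mutant state, by the lower of both wild-type mark percentiles and at most 1 per H3K27me3 peak, and the 5 H3K27me3 peaks with most members. Score and width bands hold about equal numbers of the sites compared, members and others together, except that H3K27me3 scores of 3100 or more form the highest of 4 bands. Bands for the split by HOXA13 score and for members by E10.5 state were made from members alone. In the former, H3K27ac scores of 3100 or more form the highest of 5 bands, with 243 members against 123 in the band below. The genome at hand was GRCm38, so no sequence or gene was assigned and the planned motif counts and gene lists were not made. Alternatives numbered 8, and 1 more, without the 2 H3K27me3 peaks with most members, was added after seeing the data.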

Additional observations from a re-analysis of the deposited data

How the results depend on the processing

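With scores of at least 100 in every list, the members numbered 533, both marks were left at 57.0%, H3K27me3 alone at 15.6%, H3K27ac was called in the mutant at 81.6%, and E10.5 H3K27me3 was called at 42.4%, or 53.9%, 18.3% and 0% where both marks, H3K27ac alone or neither were left. The HOXA13 score ratio was then 1.89, the gap to sites with H3K27ac alone in the highest HOXA13 band 5.52 points, that to HOXA13-only sites -13.6, and peaks with both factors differed from unbound peaks by -12.5 points for H3K27ac and -16.6 for E10.5. With at least 50% overlap there were 550 members, 40.5% with E10.5 H3K27me3 (47.3% with both marks left, 20.5% with H3K27ac alone), and the differences from sites with H3K27me3 alone reversed to -1.98 points in the mutant and -6.77 at E10.5, with -5.23 against unbound peaks at E10.5. With the mark over the midpoint there were 500 members, 57.4% with both marks left, 82.2% with mutant H3K27ac, 40.8% with E10.5 H3K27me3 (48.1% and 21.0% as before). The same differences reversed to -5.27 and -6.36, and those from unbound peaks were -16.5, -11.0 and -6.25 points for H3K27ac, H3K27me3 and E10.5. With marks within 1000 bp, both were left at 64.8%, H3K27ac alone at 20.4%, mutant H3K27me3 at 76.9% and E10.5 at 54.5%, with differences of 10.6, 11.8 and, against unbound peaks at E10.5, -17.4 points. With lists of equal length, H3K27me3 alone was left at 16.0%, mutant H3K27ac at 80.6%, and the lowest HOXA13 band differed by 15.7 points. The cause of these changes was not tested.

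Of 220 comparisons of a result with an alternative, 179 stayed within the interval reported or, for the number of members and the factor score ratios, which have no interval, within 1.5 times. Members limited to 1 per peak were not run for the 1-factor sites and the unbound peaks. No paired analysis was possible because each group is 1 library. Depth is unknown, so a mark that is not called cannot be told apart from one below the threshold, and stage cannot be told apart from strain, limb part and antibody at E10.5.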

Other observations

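Shared sites with both marks in the double mutant numbered 705, and 143 of these were not members. In wild type 91 of the 143 carried H3K27me3 alone, 48 carried H3K27ac alone and 4 carried neither. An E10.5 H3K27me3 peak was called at 69 of the 91 and at 9 of the 48. The 91 sites had a median HOXA13 score of 185, and their mutant H3K27ac peaks had a median score of 93.2, near the lower end of that list.

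Outright exchange of marks at shared sites was seen in both directions. H3K27ac alone in wild type became H3K27me3 alone in the mutant at 34 of 7548 sites (0.450%), and the reverse held at 53 of 1331 (3.98%).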
